A study of Mus musculus with 4 samples.

Results

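The far border of the infarct, called border zone 1 (BZ1) here, is the strip of muscle that lies 3 to 4 spot steps outside the infarct zone (IZ), between the near border (BZ2) and the remote zone (RZ). It was compared with the RZ of the same hearts. The members are 343 spots of 5909 kept in the whole series, and the RZ holds 1126. Spots were chosen by their own expression: in spots under tissue with at least 500 UMIs, the share of 12 cardiomyocyte genes (Myh6, Tnnt2, Tnni3, Actc1, Myl2, Myl3, Pln, Mb, Ckm, Tcap, Ryr2 and Ttn) in non-mitochondrial UMIs was taken, and the IZ was made of spots under 0.5 times the section's 90th percentile of that share, in connected patches of at least 10 spots. Spots that were not low in share and lay 1 to 2 steps from the IZ formed the BZ2 (554 spots), those at 3 to 4 steps the BZ1, and those farther out the RZ. The study uses the names RZ, BZ1, BZ2 and IZ for zones drawn by an adapted published criterion on cardiomyocyte profiles. The zones here follow a different rule and were not compared with the study's zones.

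The sections came from hearts of mice labelled Collagen1a1-GFP+, which carry a GFP reporter driven from a collagen gene of fibroblasts. All animals, the control included, carried it. Infarction was made by ligation of the left anterior descending coronary artery, and the hearts were taken 3 days (1 section, labelled female) or 5 days after infarction (dpi; 2 sections, 1 labelled female and 1 labelled male). The study's methods give an age of 8 to 12 weeks. The control was 1 section of a healthy heart labelled female, which has no IZ and entered no test. Each section is 1 heart, so n = 3 hearts for every comparison of zones, with 1 heart at 3 dpi and 2 at 5 dpi.

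Muscle beside an infarct survives, but is known to take up a stressed state. Its cardiomyocytes switch on genes of the fetal heart such as those of the natriuretic peptides, and lower genes of fat burning and oxidative phosphorylation, the pathways that supply most of the adult heart's ATP. Fibroblasts between the muscle fibres lay down matrix, and blood monocytes enter and become macrophages. A Visium spot covers several cells, so its RNA is a mixture of muscle and stromal cells, and fewer cells of a type cannot be told apart from less RNA per cell.

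The BZ1 held 154, 97 and 92 spots. Values in sets of 3 are given in one order below: 3 dpi, then the 5 dpi heart labelled female, then the 5 dpi heart labelled male. The RZ held 392, 201 and 533 spots. The 4 Y-linked genes counted as a check gave 718 UMIs in the 5 dpi heart with the female label but 1 in that with the male label, against 0 at 3 dpi and in the control, so the sexes of the 5 dpi sections go against their labels and the sections are named by label only. Summed non-mitochondrial UMIs came to 635016, 351249 and 436709 in the BZ1 and to 1353478, 856404 and 2482199 in the RZ, and levels are given as CPM, UMIs per 1000000 of these sums. The median spot held 4055, 3232 and 3924 non-mitochondrial UMIs in the BZ1 and 2912, 4048 and 4348 in the RZ, so the BZ1 was deeper at 3 dpi and shallower at 5 dpi.

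**Figure D1:**
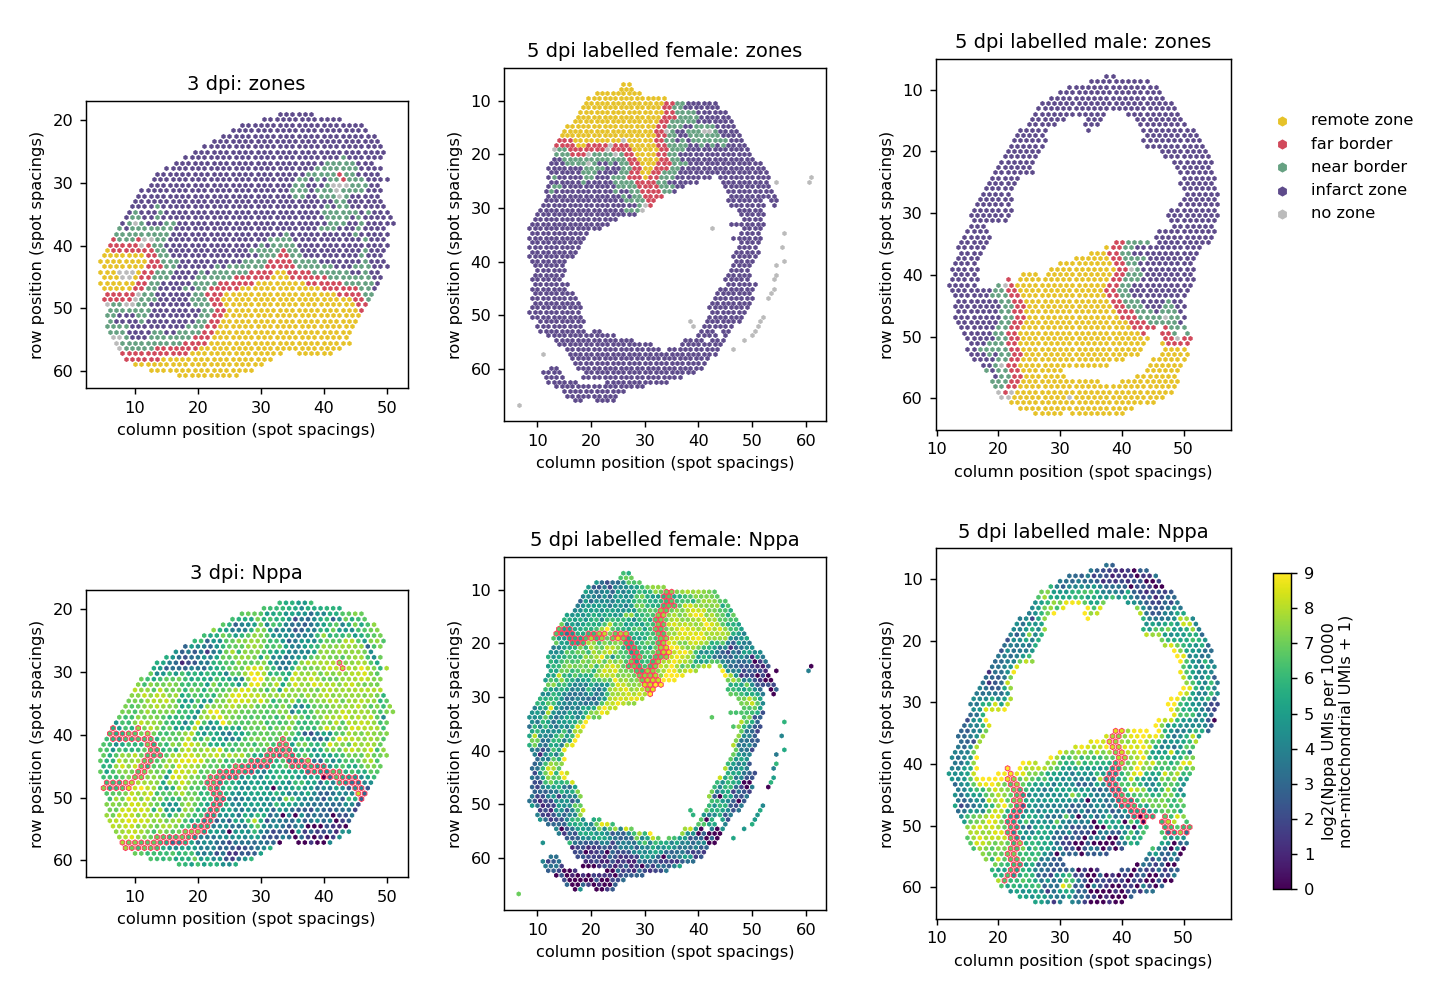
The upper row maps the zones of the 3 infarcted sections, with each kept spot at its array position in spot spacings, and the lower row colours the same spots by Nppa on a log2 scale, with BZ1 spots outlined in red. The BZ1 lies along the RZ in 3, 2 and 3 separate patches, the largest of 112, 76 and 41 of its 154, 97 and 92 spots. Summed Nppa is higher in the BZ1 than in the RZ in each section.

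The zones were set from the cardiomyocyte share, so the following values are description only. The 12 genes made up 8.54%, 7.15% and 6.99% of non-mitochondrial UMIs in the BZ1, 9.83%, 9.06% and 8.18% in the RZ and 10.1% in the control. The limit under which a spot counted as low was 5.28%, 4.31% and 4.64%. Just inside the strip, at step 4, the share was 8.80%, 7.25% and 7.22%, and just outside it, at step 5, it was 8.94%, 8.11% and 7.40%. The 12 genes did not stand alike. Tcap, a Z-disc protein that caps titin, was at 1129, 934 and 1104 CPM in the BZ1 against 1831, 1732 and 1701 in the RZ, and Tnni3 (cardiac troponin I) at 7371, 4874 and 4012 against 9051, 6959 and 5657. Tnnt2 (cardiac troponin T) stood closer, at 7034, 6440 and 6029 against 7418, 7376 and 6294.

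Between BZ1 and RZ, 9 genes rose and 1 fell in the fit of all 12 sums (4 zones in 3 sections, quasi-likelihood test of edgeR, p-values adjusted by Benjamini-Hochberg). These 10 were 0.106% of 9449 genes tested, and 933 genes had an unadjusted p under 0.05. The genes that rose were Nppa and Sprr1a of stressed cardiomyocytes, the matrix genes Cthrc1, Lox, Postn, Fn1, Fbn1 and Timp1, and the macrophage gene Mpeg1, and Ech1 of fatty acid oxidation fell. All 10 went the same way in 3 of 3 sections, and in 9 of them the 3 BZ1 values lay outside the range of the 3 RZ values, Ech1 being the exception. Of all genes tested, 13.4% had zones that did not overlap in this way.

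The natriuretic peptide gene Nppa, which the adult ventricle keeps low and a loaded ventricle switches on again, was the most abundant of the 10. It stood at 8209, 15519 and 12461 CPM in the BZ1 and at 3803, 5597 and 6026 CPM in the RZ. The BZ1 was thus 2.16, 2.77 and 2.07 times the RZ, and every BZ1 value lay above every RZ value. The log2 fold change was 1.12 (SE 0.19, edgeR adjusted p 0.0121). In the BZ2 Nppa was higher still, at 16435, 23216 and 23946 CPM, and the control section held 389 CPM. Spots varied within the strip, with lower quartiles of 3957, 7102 and 3061 CPM and upper quartiles of 9186, 18413 and 12207 CPM. With each spot thinned to 1500 non-mitochondrial UMIs, 98.4%, 100% and 98.9% of BZ1 spots held an Nppa UMI, against 86.3%, 97.4% and 77.8% of RZ spots and 27.4% of control spots. Unthinned, the shares were 99.4%, 100% and 97.8% in the BZ1, 95.2%, 100% and 88.0% in the RZ and 36.3% in the control. Thinning left out 27, 1 and 5 BZ1 spots, 64, 9 and 15 RZ spots and 106 control spots.

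Sprr1a, a small proline-rich protein induced in stressed cardiomyocytes, was at 135, 174 and 289 CPM in the BZ1 and at 80.5, 72.4 and 88.2 CPM in the RZ. The zones did not overlap. The control held 0 of 3800029 UMIs, which allows a level of up to 0.789 CPM (3 UMIs, counting error only). The log2 fold change was 1.16 (SE 0.18, edgeR adjusted p 0.00508), from 86, 61 and 126 UMIs in the BZ1. In the BZ2 the level was 429, 451 and 700 CPM. The promoters of these 2 cardiomyocyte genes are shown because their transcripts rose in the strip, together with that of Isg15, an interferon target described further below. Sequences are from RefSeq (GRCm38.p6), 250 bases before to 50 after the transcript start, read 5′ to 3′ on the gene's strand. They lie at chr4:148000472-148000771 (plus strand) for Nppa, chr3:92485832-92486131 (minus strand) for Sprr1a and chr4:156200769-156201068 (minus strand) for Isg15.
Nppa: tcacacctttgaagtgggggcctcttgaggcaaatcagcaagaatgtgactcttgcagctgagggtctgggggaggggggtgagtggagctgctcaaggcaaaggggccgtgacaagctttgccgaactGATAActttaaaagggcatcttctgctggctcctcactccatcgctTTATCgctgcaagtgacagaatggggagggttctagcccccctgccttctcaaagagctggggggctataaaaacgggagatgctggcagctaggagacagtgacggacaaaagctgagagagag
Sprr1a: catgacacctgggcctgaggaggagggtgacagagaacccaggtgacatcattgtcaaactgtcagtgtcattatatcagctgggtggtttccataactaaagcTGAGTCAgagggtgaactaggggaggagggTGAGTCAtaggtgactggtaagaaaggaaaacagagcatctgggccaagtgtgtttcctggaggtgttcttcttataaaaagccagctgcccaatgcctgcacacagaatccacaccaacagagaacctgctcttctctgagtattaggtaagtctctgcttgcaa
Isg15: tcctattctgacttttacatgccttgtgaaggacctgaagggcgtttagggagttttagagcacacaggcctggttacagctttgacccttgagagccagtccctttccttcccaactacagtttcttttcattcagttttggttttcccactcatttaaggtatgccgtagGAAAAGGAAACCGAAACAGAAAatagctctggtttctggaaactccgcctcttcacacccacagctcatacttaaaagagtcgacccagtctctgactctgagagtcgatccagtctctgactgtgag
Capitals mark matches on either strand. They are GATAA in Nppa, the letters of GATA factors (2 matches), TGANTCA in Sprr1a, the letters of AP-1 (2 matches), and in Isg15 the letters of an interferon-stimulated response element, GAAA and GAAA with 2 bases of any kind between them (3 overlapping matches). Of 32851 promoters of this length, 25.4% held GATAA, 7.81% TGANTCA and 3.44% the spaced GAAA pair. All 3 motifs were looked for in the promoters available for the genes that rose or fell, and each gene is shown with a motif that it matched. Nppa held 0 AP-1 and 0 response element matches, and Sprr1a 0 GATA and 0 response element matches. Mpeg1 held 2 GATA matches, Timp1 held 1, and Fbn1 held 1 response element match. Postn and Ech1 held 0 of any kind. These are matches of letters, and no binding was measured.

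Cthrc1, the collagen triple helix repeat gene of reparative fibroblasts, had the largest log2 fold change of the 10 (1.35, SE 0.22, edgeR adjusted p 0.00791). It was at 63.0, 85.4 and 96.2 CPM in the BZ1 against 28.1, 35.0 and 28.2 in the RZ, which rests on 40, 30 and 42 UMIs in the BZ1, and the control held none. The BZ1 was 2.24, 2.44 and 3.41 times the RZ. Lox, the enzyme that cross-links collagen, was at 91.3, 179 and 101 CPM against 32.5, 64.2 and 44.3 (log2 fold change 1.29, SE 0.18, edgeR adjusted p 0.00195). Neither gene's zones overlapped. Cthrc1 was the sparser over spots: unthinned, 24.7%, 26.8% and 29.3% of BZ1 spots held a Cthrc1 UMI against 8.16%, 13.4% and 10.7% of RZ spots. After thinning these shares were 7.09%, 11.5% and 6.90% in the BZ1 and 3.05%, 4.69% and 3.86% in the RZ. For Lox the unthinned shares were 27.3%, 43.3% and 34.8% in the BZ1 and 8.93%, 21.9% and 13.9% in the RZ, and the thinned shares 9.45%, 29.2% and 16.1% and 4.27%, 8.33% and 5.98%.

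The other matrix genes were more abundant. Postn (periostin, a matricellular protein of activated fibroblasts) was at 880, 1799 and 1381 CPM in the BZ1 against 466, 762 and 782 in the RZ, with a log2 fold change of 0.89 (SE 0.12, edgeR adjusted p 0.00195). Fn1 (fibronectin) was at 397, 749 and 554 CPM against 214, 278 and 293 (0.97, SE 0.16, edgeR adjusted p 0.00872). For both, the lowest BZ1 heart, at 3 dpi, stood above the highest RZ heart. Fbn1 (fibrillin, the backbone of microfibrils) was at 409, 515 and 520 CPM against 211, 327 and 319 (0.67, SE 0.13, edgeR adjusted p 0.0424). Timp1, an inhibitor of matrix metalloproteinases, was at 422, 683 and 410 CPM against 231, 248 and 251 (0.90, SE 0.16, edgeR adjusted p 0.0130). The 5 dpi section labelled female stood highest in the BZ1 for Timp1, Postn and Fn1. In the control these genes were at 41.1 (Postn), 47.6 (Fn1), 65.8 (Fbn1) and 4.74 CPM (Timp1), so the RZ itself stood above the 1 control heart for each. With spots thinned, 57.5%, 86.5% and 81.6% of BZ1 spots held a Postn UMI against 37.5%, 59.4% and 51.7% of RZ spots and 6.23% of control spots.

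Mpeg1, which encodes the pore-forming protein perforin-2 of macrophages, was at 66.1, 74.0 and 43.5 CPM in the BZ1 against 30.3, 29.2 and 18.1 in the RZ. Its log2 fold change of 1.18 (SE 0.23, edgeR adjusted p 0.0457) rests on 42, 26 and 19 BZ1 UMIs. Ech1, an enoyl-CoA isomerase of fatty acid breakdown, was the gene that fell: 1181, 715 and 634 CPM in the BZ1 against 1704, 1019 and 1101 in the RZ. Within each heart the RZ was 1.44, 1.43 and 1.74 times the BZ1, although the 3 dpi BZ1 lay above both 5 dpi RZ values. The log2 fold change was -0.71 (SE 0.12, edgeR adjusted p 0.0110), and the control held 2230 CPM.

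**Figure D2:**
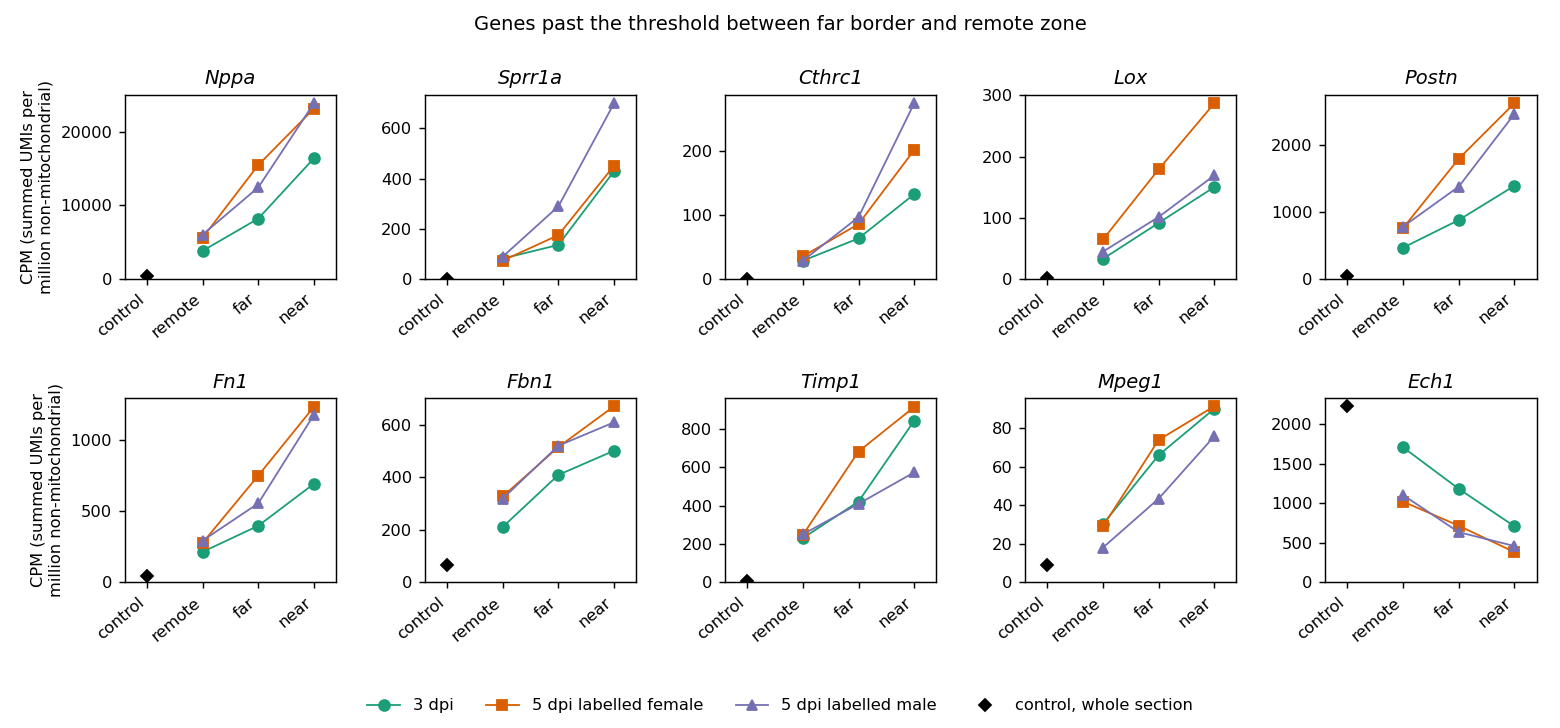
Each panel gives the summed CPM of 1 gene in the remote zone, far border and near border of the 3 sections, joined by lines within a section, with the whole control section as a black diamond, on axes that start at 0. In 9 panels the 3 far border points lie above the 3 remote points, as for Nppa (8209 to 15519 against 3803 to 6026 CPM), and Ech1 goes the other way.

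The number of calls depended on which sums shared the fit. The common biological coefficient of variation was 12.8% with the IZ sums and 6.87% with the 9 sums of BZ2, BZ1 and RZ. In the fit without the IZ sums 355 of 7440 genes passed (4.77%), 129 higher in the BZ1 (1.73%) and 226 lower (3.04%), and all 10 genes above were among them. Of these 355, 353 had the same direction of CPM in 3 of 3 sections. TMM scaling set that split: TMM factors of BZ1 and RZ differed by 0.09, 0.11 and 0.11 log2 units, and without them the median of all genes was 0.10 and the calls were 241 higher and 134 lower. Without the section as a block 0 genes passed in either fit (edgeR, 506 with and 505 without the IZ sums at an unadjusted p under 0.05). Without the 5 dpi section labelled female, 0 passed with the IZ sums (edgeR, 486 unadjusted, and DESeq2 on all sections 80) and 127 without them. Without the section labelled male the counts were 2 and 235, and without 3 dpi 88 and 304. Lists of genes are counted below in the fit without the IZ sums, with the count in the fit of all 12 sums given as well, and "rose" and "fell" are kept for the latter.

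The broadest difference was in mitochondrial energy genes, which stood lower in the strip. Of 81 respiratory chain subunits encoded in the nucleus, 77 had lower CPM in 3 of 3 sections and none had higher CPM in all 3, where 12.6% of all tested genes were lower and 23.8% higher in all 3. In the fit without the IZ sums 74 passed, all lower, with a median log2 fold change of -0.36 beside -8.4e-05 over all genes. That count was 55 without TMM and 46 without the section labelled female. None of the 81 passed in the fit of all 12 sums (edgeR, median -0.38). Summed over the list, the respiratory chain took 146092, 125253 and 147320 CPM in the BZ1, 172476, 156516 and 178915 in the RZ and 215383 in the control, so no BZ1 value reached an RZ value.

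The medians of the complexes lay between -0.39 and -0.36. Complex I, which takes electrons from NADH, had 33 of 37 subunits lower (median -0.36), and complex II 3 of 4 (-0.36). Complex III with cytochrome c had 10 of 10 (-0.38), complex IV, the oxidase that consumes oxygen, 11 of 13 (-0.39), and ATP synthase 17 of 17 (-0.37). The gene with the lowest value was Cox7a1, the heart and muscle form of a complex IV subunit, at 2820, 2292 and 2697 CPM in the BZ1 against 4025, 3390 and 3887 in the RZ and 6451 in the control (-0.64, SE 0.07, edgeR adjusted p 9.58e-11 without the IZ sums, 0.234 with them). Cox6a2, another muscle form, was at 5762, 4495 and 5633 CPM against 7136, 6478 and 7401 (-0.51, edgeR adjusted p 1.26e-08 without the IZ sums, 0.365 with them). The zones did not overlap in either gene. Cox6a1, the counterpart of Cox6a2 in other tissues, was at -0.03 (edgeR adjusted p 0.945). Others that did not pass included Cox8a, Ndufb3, Ndufs3, Ndufs8 and Sdha, at -0.29 to -0.19.

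Transcripts of the mitochondrial genome, left out of the sums, were also less abundant. They made up 35.0%, 36.7% and 24.0% of all UMIs in the BZ1, 38.5%, 43.6% and 27.5% in the RZ and 40.3% in the control. With these genes kept in the table, 12 of 12 passed lower in the fit without the IZ sums, at -0.58 to -0.37 on the log2 scale, and 0 of 12 in the fit of all sums (edgeR, -0.63 to -0.39). The cardiomyocyte share that set the zones was lower in the strip in the same sections, and its part in the energy gene values was not tested.

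Fatty acid genes had the lowest median of the energy lists. Of 41 tested, 32 had lower CPM in 3 of 3 sections and 1 higher. In the fit without the IZ sums 23 of 40 passed, all lower (median -0.43), and 12 did without the section labelled female, while in the fit of all sums 1, Ech1, fell. Uptake and storage were represented by Cd36, the fatty acid transporter (-0.41), the capillary lipase Lpl (-0.35), the heart's fatty acid binding protein Fabp3 (-0.41) and Plin5, which coats lipid droplets (-0.71). Beta-oxidation was represented by Acadm (-0.63), Acadvl (-0.57), Hadha (-0.45), Hadhb (-0.36) and Acaa2 (-0.62). Acaa2, the thiolase of the last step, was at 767, 430 and 444 CPM in the BZ1 against 958, 767 and 609 in the RZ (SE 0.10, edgeR adjusted p 8.32e-06 without the IZ sums, 0.0758 with them). The BZ1 was lower in each heart, while the zones overlapped across hearts.

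In the citric acid cycle list 23 of 27 genes were lower in 3 of 3 sections and none higher, and 17 passed without the IZ sums, all lower (median -0.39, 9 without TMM and 6 without the section labelled female). None passed in the fit of all sums (edgeR). Idh2, the mitochondrial isocitrate dehydrogenase that makes NADPH, was at 1047, 897 and 1012 CPM against 1452, 1239 and 1214 in the RZ (-0.50, SE 0.08, edgeR adjusted p 9.11e-06 without the IZ sums, 0.144 with them). Mpc2, a subunit of the mitochondrial pyruvate carrier, was at -0.55. In the energy buffer list 7 of 19 passed without the IZ sums, all lower, with the mitochondrial creatine kinase Ckmt2 at -0.41 and Slc25a4, which exchanges ADP for ATP, at -0.43. Breakdown of ketones and branched-chain amino acids gave 4 of 24, all lower. Without TMM these counts were 4 and 1, and in the fit of all 12 sums both were 0 (edgeR).

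Glycolysis was nearly level as a list. Its median was 0.03, and its summed level was 19107, 17933 and 19674 CPM in the BZ1 against 19248, 18108 and 19017 in the RZ. Of 21 genes tested without the IZ sums, 6 passed and all were lower: the glucose transporter of muscle Slc2a4 (-0.40), the lactate carrier Slc16a1 (-0.49), and Pfkm (-0.33), Eno3 (-0.39), Pgam2 (-0.32) and Ldhb (-0.31), which are muscle or heart forms. Without TMM the split was 2 higher and 1 lower, and in the fit of all 12 sums 0 passed (edgeR). Gapdh was at 5077, 5193 and 6524 CPM against 4809, 4842 and 6267 (-0.02, SE 0.06, edgeR adjusted p 0.927 without the IZ sums, 0.985 with them), a difference that is below 0 only after TMM scaling and turns to 0.08 without TMM in the fit of all sums. In the hypoxia list 0 of 19 passed without the IZ sums and 0 of 23 with them (edgeR, median without them -0.02).

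**Figure D3:**
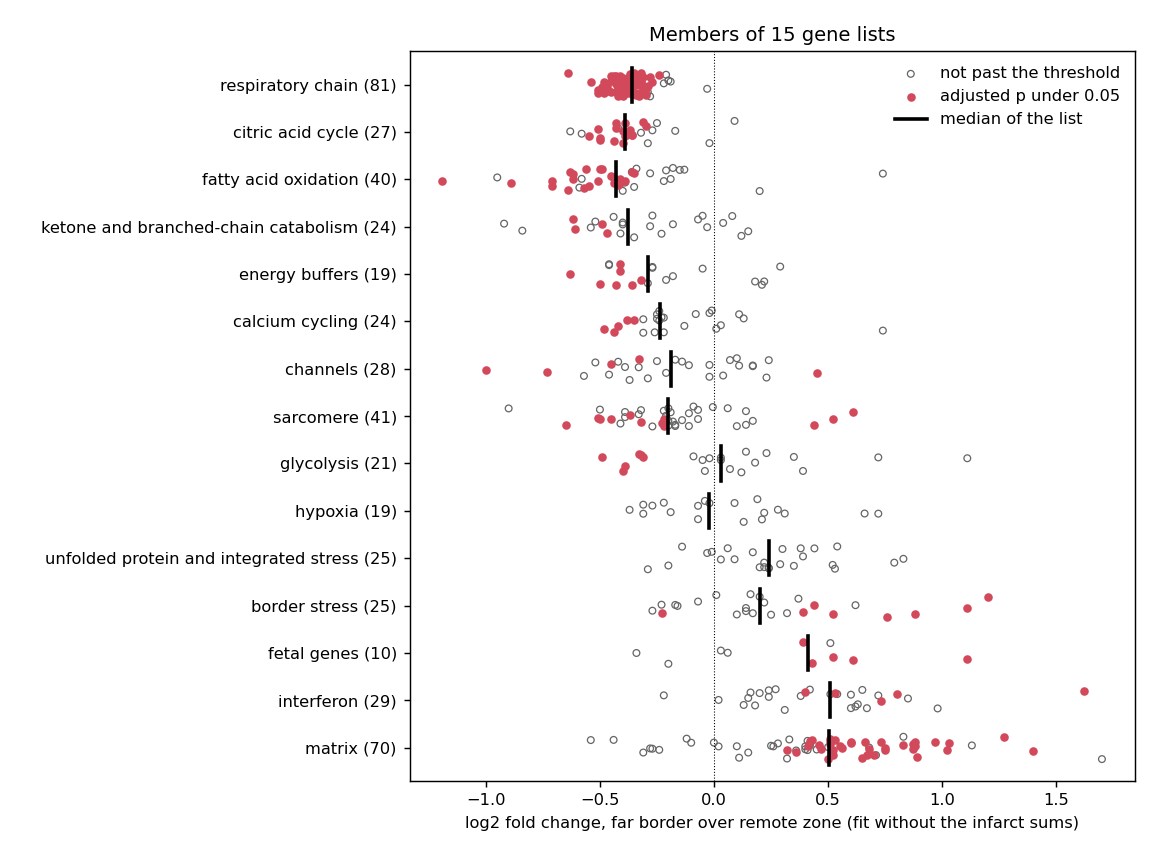
Each point is the log2 fold change of 1 gene, far border over remote zone, in the fit without the infarct sums, grouped by list with the number of genes tested in brackets, and filled where the adjusted p was under 0.05. Medians (black bars) run from -0.43 for fatty acid oxidation, -0.39 for the citric acid cycle and -0.36 for the respiratory chain to 0.50 for matrix and 0.51 for interferon.

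Cardiomyocyte stress genes stood higher in the strip in part. In the border stress list 3 of 25 genes rose (Nppa, Sprr1a and Timp1), 7 passed higher without the IZ sums, and Csrp3, a stretch-sensing Z-disc protein, passed lower (-0.23). Without TMM 11 passed higher and 0 lower, so the call of Csrp3 rests on the scaling. The lists share members, so their counts are not independent. Timp1 is also counted in the matrix list, Nppa, Nppb and Ankrd1 among fetal genes, and Ankrd1, Xirp2 and Csrp3 in the sarcomere list. Clu, the secreted chaperone clusterin, was at 2664, 5204 and 4000 CPM in the BZ1 against 1624, 2681 and 2109 in the RZ and 518 in the control (0.76, SE 0.07, edgeR adjusted p 1.25e-11 without the IZ sums, 0.0729 with them). Ankrd1, a stretch-responsive titin-binding protein, was at 3052, 4285 and 3407 CPM against 1705, 2857 and 2502 (0.52, SE 0.08, edgeR adjusted p 1.92e-06 without the IZ sums, 0.591 with them). Its zones did not overlap. Xirp2, an actin-binding protein of the intercalated disc, was at 395, 510 and 403 CPM against 281, 379 and 250 (0.44, SE 0.10, edgeR adjusted p 0.00213 without the IZ sums, 0.631 with them).

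Among genes of the fetal heart, 1 of 11 rose in the fit of all 12 sums (Nppa), and 5 of 10 passed higher without the IZ sums: Nppa, Nppb, Ankrd1, Myh7 and Eef1a1. Myh7, the slow myosin, was at 408, 991 and 586 CPM in the BZ1 against 310, 541 and 334 in the RZ (0.61, SE 0.11, edgeR adjusted p 0.000114 without the IZ sums, 0.394 with them). Nppb, the brain natriuretic peptide, was at 334, 290 and 240 CPM against 231, 175 and 197 and 227 in the control (0.39, SE 0.12, edgeR adjusted p 0.0371 without the IZ sums, 0.766 with them), so the control lay inside the range of the RZ. Acta1 (skeletal actin) was at 1150, 1526 and 2306 CPM against 1088, 1497 and 1794 (0.06, edgeR adjusted p 0.811 without the IZ sums, 0.982 with them). Des (desmin, 0.17, edgeR adjusted p 0.195) and Flnc (filamin C, 0.10, edgeR adjusted p 0.742) did not pass without the IZ sums either.

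None of the sarcomere, calcium cycling, channel or intercalated disc genes outside the 12 used for zoning passed in the fit of all 12 sums (edgeR). Of 41 sarcomere genes 9 passed lower and 3 higher without the IZ sums (4 and 4 without TMM), and the summed level was 42319, 43946 and 41279 CPM in the BZ1 against 41015, 47409 and 42182 in the RZ. The lower members included Cmya5 (-0.65), Fhl2 (-0.51), the myosin methyltransferase Smyd1 (-0.50), Myoz2 (-0.45) and Tpm1 (-0.22), and the higher were Xirp2, Ankrd1 and Myh7. In calcium cycling 5 of 24 passed lower without the IZ sums (4 without TMM): Hrc (-0.48), Tmem38a (-0.44), Pde4dip (-0.42), Srl (-0.35) and Atp2a2, the SERCA pump that refills the sarcoplasmic reticulum. Atp2a2 was at 6252, 4461 and 3748 CPM against 6981, 5837 and 4571 (-0.38, SE 0.06, edgeR adjusted p 2.25e-05 without the IZ sums, 0.442 with them). Among 28 channels and their partners Lrtm1 (at 91.3, 59.8 and 25.2 CPM against 159, 131 and 51.2), Tmem65 (-0.73) and Fxyd1 (-0.33) were among those that passed lower without the IZ sums, where the list gave 1 higher and 4 lower (1 and 2 without TMM). Without the IZ sums none of 20 intercalated disc genes passed either (edgeR, median -0.05).

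The ribosomal protein genes Rpl3 and Rpl3l differed in opposite directions. Rpl3l, the form of striated muscle, was at 140, 76.9 and 93.9 CPM in the BZ1 against 219, 147 and 107 in the RZ (-0.69, SE 0.16, edgeR adjusted p 0.00203 without the IZ sums, 0.257 with them). Rpl3, its general counterpart, was at 669, 723 and 712 CPM against 515, 529 and 546 (0.29, SE 0.09, edgeR adjusted p 0.0394 without the IZ sums, 0.424 with them). The control held 290 CPM of Rpl3l and 232 of Rpl3. How reads shared by such related genes were assigned was not examined.

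Extracellular matrix was the list with the most higher members. Of 70 genes, 6 rose (Cthrc1, Lox, Postn, Fn1, Fbn1 and Timp1), 36 passed higher without the IZ sums and none lower, and 50 were higher in 3 of 3 sections. The count without the IZ sums was 17 without the section labelled female. The summed level was 16598, 25731 and 19409 CPM in the BZ1, 11707, 15172 and 12878 in the RZ and 5401 in the control. Col1a1 (fibrillar collagen I) was at 841, 1318 and 666 CPM against 554, 683 and 390 (0.68, edgeR adjusted p 2.13e-08 without the IZ sums, 0.121 with them). Col3a1 (collagen III) was at 1476, 1893 and 1520 against 967, 1092 and 931 (0.60, edgeR adjusted p 1.17e-08 without the IZ sums, 0.0804 with them). The cross-linking enzyme Loxl2 (0.87), the thrombospondins Thbs1 (1.03), Thbs2 (0.87) and Thbs4 (0.88), tenascin C (Tnc, 0.83) and the TGF-beta binding protein Ltbp2 (1.02) passed higher as well.

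The list of resting fibroblast genes was nearly level. Of 22 tested without the IZ sums, 2 passed higher (Mfap5 and Lamb1, which the matrix list also holds) and 2 lower, with 0 in the fit of all 12 sums (edgeR). The lower ones were Gsn (gelsolin, -0.45) and C3 (complement, -0.83). The summed level was 2789, 3288 and 2452 CPM in the BZ1 against 2917, 3375 and 2284 in the RZ. Dcn (decorin) was at 482, 638 and 552 CPM against 491, 528 and 506, and Pdgfra, a receptor by which fibroblasts are recognised, at 25.2, 22.8 and 11.4 against 19.2, 21.0 and 16.9. Neither passed (edgeR adjusted p 0.961 and 0.971 without the IZ sums). In the BZ1 3 UMIs correspond to 4.72, 8.54 and 6.87 CPM, so Pdgfra rests on few UMIs. The fibroblast marker list summed to 2562, 2964 and 2056 CPM against 2443, 2470 and 1743, higher in each heart. Of its 6 genes tested without the IZ sums, 1 passed higher (Col1a1) and 1 lower (Gsn), with 0 of 7 in the fit of all 12 sums (edgeR). The EGFP transcript of the reporter was at 1110, 2335 and 3231 CPM against 867, 1648 and 2471 and 686 in the control (0.31, SE 0.07, edgeR adjusted p 0.00148 without the IZ sums, 0.417 with them). Dcn, Pdgfra and EGFP were chosen after their values were seen, as were Isg15 and Ifit3.

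Interferon targets had a median of 0.51 without the IZ sums. Of 30 genes, 21 were higher in 3 of 3 sections and none lower, 0 passed in the fit of all sums (edgeR), and 5 of 29 passed without the IZ sums: Isg15, Ifit3, Ifit3b, Bst2 and Lgals3bp. That count was 8 without TMM and 0 without the section labelled female. Isg15, a ubiquitin-like modifier, was at 224, 205 and 110 CPM in the BZ1 against 106, 74.7 and 92.3 in the RZ and 43.7 in the control (0.80, SE 0.16, edgeR adjusted p 0.000412 without the IZ sums, 0.121 with them). The BZ1 was 2.10, 2.74 and 1.19 times the RZ, so the section labelled male stood closest to level. The list summed to 5620, 5099 and 4399 CPM in the BZ1, 6300, 4255 and 4401 in the BZ2 and 4036, 3502 and 3942 in the RZ. In the BZ2 Isg15 was at 232, 99.8 and 109 CPM. The section labelled female went from 89.5 CPM at step 1 through 170 at step 3 to 240 at step 4, 156 at step 5 and 76.1 at step 6, with 48 spots at step 4. The difference between BZ1 and BZ2 did not pass (0.29, edgeR adjusted p 0.476 without the IZ sums).

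No immune or erythroid marker passed in the fit of all 12 sums (edgeR), apart from Mpeg1, which is in none of these lists. The summed level of 8 infiltrating macrophage genes was 2398, 2201 and 2070 CPM in the BZ1 against 1880, 1768 and 1530 in the RZ and 1171 in the control, and 3 of 7 passed higher without the IZ sums: Gpnmb (1.70), Spp1 (osteopontin, 0.97) and Lgals3 (galectin-3, 0.63). Spp1 was at 137, 54.1 and 43.5 CPM against 73.9, 18.7 and 18.1, so 3 dpi stood highest in both zones. Resident macrophage genes summed to 1049, 1088 and 838 CPM against 847, 910 and 744, with 0 of 7 passed without the IZ sums (edgeR, median 0.07). Without the IZ sums and TMM 1 of them passed higher. Neutrophil genes were scarce, at 48.8, 145 and 59.5 CPM against 28.8, 81.7 and 28.6 with Cxcr2 at 0. Erythroid genes summed to 5038, 24917 and 13132 CPM against 6904, 33260 and 15450, and the haemoglobin genes Hba-a1, Hba-a2, Hbb-bs and Hbb-bt passed lower without the IZ sums (-0.52 to -0.46). The part of these cells in the values above was not tested.

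No vessel marker passed in either fit (edgeR). Endothelial genes summed to 2345, 2958 and 4282 CPM in the BZ1 against 2177, 2807 and 3893 in the RZ, and 0 of 10 passed (edgeR, median 0.02). Pericyte genes summed to 545, 754 and 513 CPM against 528, 605 and 453, and smooth muscle genes to 345, 478 and 364 against 337, 592 and 404. All 5 adipocyte markers had 0 UMIs in both zones, which allows up to 4.72, 8.54 and 6.87 CPM for each in the BZ1. In the unfolded protein and integrated stress list 0 of 25 passed without the IZ sums (edgeR), nor did any with them, while 3 passed higher without the IZ sums and TMM, and 14 of 30 were higher in 3 of 3 sections. In the immediate early list 0 of 20 passed without the IZ sums and 0 of 22 with them (edgeR, median without them 0.03).

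The remaining lists had 0 members past the test in the fit of all 12 sums (edgeR) and few without the IZ sums. In the oxidative stress list 1 of 24 passed higher and 3 lower without the IZ sums (2 and 2 without TMM). The higher one was Gpx3, the secreted glutathione peroxidase, at 649, 826 and 607 CPM in the BZ1 against 485, 566 and 382 in the RZ (0.45, SE 0.10, edgeR adjusted p 0.00241 without the IZ sums, 0.394 with them). The lower ones were Gstm1, a glutathione transferase (-0.69), and the mitochondrial antioxidant enzymes Prdx3 (-0.55) and Sod2 (-0.55). Sod2 was at 576, 379 and 524 CPM against 697, 627 and 707 (edgeR adjusted p 3.57e-05 without the IZ sums, 0.121 with them). In the list of muscle atrophy and growth control 3 of 25 passed higher, Rpl3, Eef1a1 (0.43) and the calcineurin regulator Rcan1 (0.36), and 2 lower, Rpl3l and Asb2 (-0.37). Without TMM that split was 3 and 1. Among 20 chaperones the small heat shock protein gene Hspb6 passed lower (-0.35), which without TMM became 1 higher and 0 lower in the list. Among 21 chemokine, acute phase and complement genes C3 passed lower, and without TMM 2 passed higher and 1 lower. Monocyte genes summed to 59.8, 68.3 and 29.8 CPM against 44.3, 47.9 and 23.8, and genes of cycling cells to 128, 177 and 238 CPM against 87.2, 123 and 196 and 14.2 in the control, higher in each heart, with 0 of 2 and 0 of 4 passed (edgeR). Endocardial genes summed to 59.8, 65.5 and 50.4 CPM against 39.2, 64.2 and 41.5 and atrial genes to 15.7, 14.2 and 20.6 against 20.7, 28.0 and 15.7, with 0 of 1 and 0 of 1 passed. Lymphocyte, mesothelial and Schwann cell genes were too sparse to be tested.

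The profile by distance places the strip on a gradient. Nppa went from 18398, 25408 and 28895 CPM at step 1 through 8874, 16690 and 11436 at step 3 and 7484, 14338 and 13427 at step 4 to 6553, 10963 and 10940 at step 5. Beyond 10 steps it was at 1401, 1885 and 3643 CPM, still above the control's 389. The outer limit of the strip is thus not a break: Nppa at step 4 was above step 5, and step 5 above step 6 (5993, 7021 and 10292 CPM), in each section. Sprr1a went from 517, 545 and 953 CPM at step 1 to 105, 137 and 276 at step 4, 160, 176 and 168 at step 5 and 29.3, 4.95 and 44.6 beyond 10 steps, so in 2 sections step 5 was above step 4. Cthrc1 went from 149, 234 and 306 CPM to 42.8, 62.9 and 80.0 and 12.2, 19.8 and 19.5 at the same distances. Ech1 went the other way, from 602, 330 and 427 CPM at step 1 through 1287, 801 and 694 at step 4 to 2002, 1237 and 1265 beyond 10 steps. The respiratory chain list summed to 112630, 93417 and 112973 CPM at step 1, 151167, 127268 and 151014 at step 4 and 190548, 175159 and 193564 beyond 10 steps. The RZ is itself graded, and with the RZ set beyond 6 steps 90 genes passed in place of 10.

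**Figure D4:**
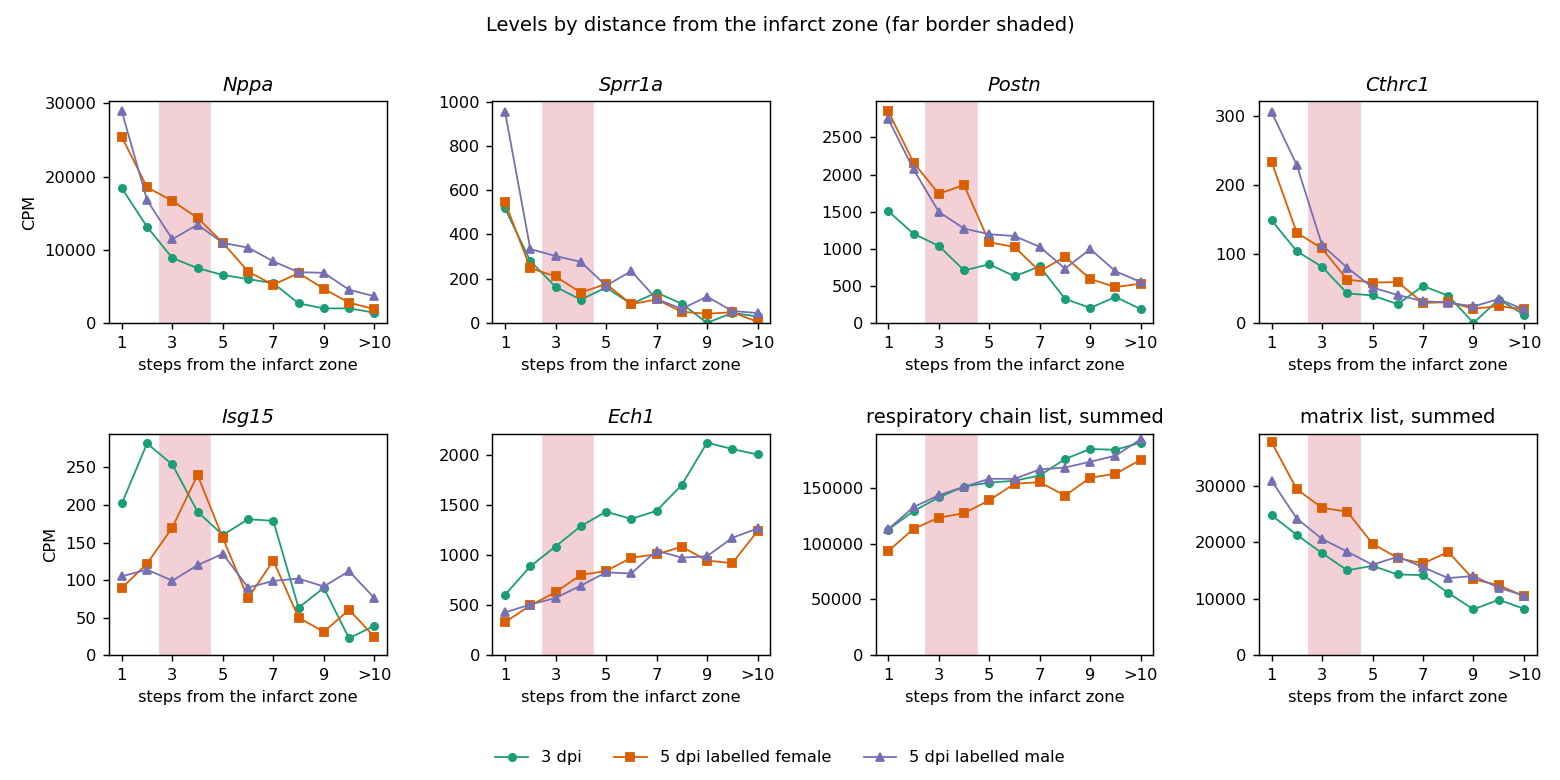
CPM is plotted against the number of spot steps from the infarct zone for 6 genes and the sums of 2 lists, with 1 line per section, axes that start at 0 and the far border (steps 3 and 4) shaded. Nppa, Sprr1a, Postn, Cthrc1 and the matrix list decline with distance and Ech1 and the respiratory chain climb, though not at every step in every section. In the section labelled male Nppa is higher at step 4 than at step 3. Isg15 is highest at step 4 (240 CPM) in the section labelled female and at step 2 (282 CPM) at 3 dpi.

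Against the BZ2, 12 of 9449 genes passed (0.127%), 3 higher in the BZ1 and 9 lower, and 242 of 7440 (3.25%) without the IZ sums, 156 higher and 86 lower (129 and 128 without TMM). Lower in the strip were Col12a1, a fibril-associated collagen (-1.58, SE 0.30, edgeR adjusted p 0.0299), Serpinb1a, an inhibitor of neutrophil proteases (-1.40), Sprr1a (-1.38), Cthrc1 (-1.22) and Clu (-0.99). Col12a1 was at 6.30, 51.2 and 18.3 CPM in the BZ1 against 31.6, 110 and 77.8 in the BZ2 and 8.13, 9.34 and 14.9 in the RZ. At 3 dpi its BZ1 level rests on 3 UMIs at step 3 and 1 at step 4, too few to tell it from the RZ. The 3 genes higher in the strip than in the BZ2 were the fatty acid genes Eci1 (0.89, SE 0.14, edgeR adjusted p 0.00695) and Ech1 (0.76) and the citric acid cycle gene Idh2 (0.68). Eci1, an enoyl-CoA isomerase, was at 263, 194 and 202 CPM in the BZ1, 162, 99.8 and 109 in the BZ2 and 374, 263 and 261 in the RZ, and the BZ1 lay between the other zones in each heart. Without the 5 dpi section labelled female 0 genes passed (edgeR, 493 unadjusted, and DESeq2 on all sections 59), without the section labelled male 1 and without 3 dpi 62.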

How the data were processed

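Visium spatial RNA sequencing gave 1 section each of a control, a 3 dpi and 2 5 dpi mouse hearts. The deposited values are raw UMI counts of 21885 genes per spot, made by the authors with Space Ranger 1.3.1 (file header), which aligned reads to a mouse reference with GFP added, and spots under tissue were picked by the authors by hand. The labels name mm10. Spot barcodes are array positions, and 2079 of 2907 recur between sections. In the section labelled male, 623 spots not marked as tissue were left out.

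Spots with at least 500 UMIs were zoned by the marker share and distance in hexagonal steps. Counts of each zone and section were summed without the 13 mitochondrially encoded genes, and tested with edgeR 4.0.16 (quasi-likelihood, TMM, filterByExpr, threshold 0.05 on the Benjamini-Hochberg adjusted p over all genes tested) with the section as a block, since all zones of a section come from 1 heart. The 12 marker genes were not tested. Each heart is 1 section, and there were 3 hearts of 2 time points. The p-values measure the spread left after section and zone are fitted, over all zones in the fit. They do not measure the spread of the BZ1 over RZ difference alone. Alternatives covered zone limits, spots, normalization, filter, block, DESeq2 1.42.0 and leaving out each section. On simulated data the tests were checked for the recovery of known changes. The limit that a count of 0 allows was set at 3 UMIs and covers counting error only. For shares of spots with a UMI, each spot was thinned to 1500 UMIs.

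Named genes were the 12 highest and 12 lowest past the threshold with 1 direction in 3 sections and at least 50 CPM, 5 and 5 against the BZ2, up to 4 of each list (2 by level where none passed) and a panel of stress and matrix genes. The same rule in the fit without the IZ sums and further list members passing it were added after values were seen. The members, lists and rule were chosen with earlier results of these data known. Promoters came from RefSeq by gene symbol. A few single genes of these lists are not reported here.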

Additional observations from a re-analysis of the deposited data

Results flagged for a closer look

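For 3 gene lists other than cell type markers the summed level in BZ1 over RZ went one way at 3 dpi and the other way in both 5 dpi sections, and these differences between time points were not tested. The sarcomere list was at 0.05 on the log2 scale at 3 dpi and at -0.11 and -0.03 at 5 dpi. The hypoxia list was at -0.03 at 3 dpi and at 0.05 and 0.14 at 5 dpi. The oxidative stress list was at -0.04 at 3 dpi and at 0.0077 and 0.0034 at 5 dpi. Among cell type markers the smooth muscle list had the same pattern (0.03 at 3 dpi, -0.31 and -0.15 at 5 dpi), as did the mesothelial list, which summed to at most 16.3 CPM in either zone. These values are ratios of CPM without TMM scaling, and the TMM factors of BZ1 and RZ differed by 0.09, 0.11 and 0.11 log2 units. The signs in the sarcomere, hypoxia, oxidative stress and smooth muscle lists depend on that scaling. The 3 dpi group is 1 heart.

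The 623 spots of the section labelled male that were not marked as tissue entered no comparison. Of the 10 genes that differed between BZ1 and RZ, 9 were above the control level there, with Nppa at 9010 CPM, Sprr1a at 1310 CPM and Postn at 2014 CPM, while Ech1 was at 258 CPM against 2230 in the control. In the BZ1 of the same section Nppa was at 12461 CPM, Sprr1a at 289 CPM, Postn at 1381 CPM and Ech1 at 634 CPM.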

How the results depend on the processing

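The count of 10 genes between BZ1 and RZ was 7 with the study's thresholds on spots, 10 with steps walked through kept spots, 10 with patches of at least 20 spots, 7 without edge spots, 8 with DESeq2's size factors, 8 with mitochondrial genes kept and 10 with the marker genes out of library sizes. It was 78 with a limit of 0.4 on the marker share, 22 with 0.6, 50 with patches of at least 5 spots, 90 with the RZ beyond 6 steps, 29 without TMM, 80 with DESeq2's Wald test and 119 with no filter on low counts. It was 355 without the IZ sums and 494 with the BZ1 and RZ sums alone, where the biological coefficient of variation was 6.87% and 4.74% in place of 12.8%. Leaving out 1 section gave 0 to 88, and without the IZ sums 127 to 304 in place of 355. The pairing comes from the hearts. Without the replicate block 0 genes passed between BZ1 and RZ with the IZ sums (edgeR, 506 unadjusted, coefficient of variation 17.4%) and 0 without them (505 unadjusted, 16.6%), and 0 between BZ1 and BZ2 in both fits (473 and 430 unadjusted). For BZ1 against BZ2 the count of 12 was 3 with a limit of 0.4, 0 with 0.6 (edgeR, 544 unadjusted), 59 with DESeq2's Wald test, 58 with no filter, 242 without the IZ sums and 0 to 62 leaving out 1 section. Without the IZ sums the count of 242 was 142 with a limit of 0.6 and 117 to 202 leaving out 1 section. The fits with fewer sums also tested fewer genes and had fewer residual degrees of freedom, and for each of these changes the cause was not tested.

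Of the log2 fold changes of named genes, 20 changed sign, all in genes near 0 that passed in none of these settings. Acta1 was at -0.0089 with the study's thresholds and, leaving out 1 section, -0.05 to 0.14. Cryab was at -0.02 with a limit of 0.6, with the RZ beyond 6 steps, with DESeq2's size factors or Wald test, -0.01 with patches of at least 5 spots, -0.00063 without edge spots, -0.04 with no filter, -0.0089 with mitochondrial genes kept and, leaving out 1 section, -0.02 to 0.02. Fabp4 was at 0.05 with a limit of 0.6, 0.01 with BZ1 and RZ sums alone and without the section labelled female, 0.10 without TMM and 0.00024 without the IZ sums. Gapdh was at 0.08 without TMM, Hspa5 at -0.0077 with the study's thresholds, and Ly6c1 at -0.0093 with a limit of 0.4 and -0.02 with no filter. None of the 10 genes changed sign in the 20 alternatives, and the number in which they kept an adjusted p under the threshold ran from 12 (Mpeg1) to 18 (Lox and Postn). The sparse genes rest on few UMIs, with 19 to 42 of Mpeg1 and Cthrc1 in each BZ1 sum of 351249 to 635016 UMIs. The part of depth in these numbers was not tested.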
